A study of Rattus norvegicus with 12 samples.

Results

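The chemokine system was examined in rat heart tissue as 44 genes, 28 chemokine ligands, 12 signalling receptors and 4 atypical receptors. They were chosen by symbol: every probe set annotated to exactly 1 gene symbol made of Ccl, Cxcl, Ccr, Cxcr or Ackr and a number, or to Cx3cl1 or Cx3cr1. This gave 57 of the 31042 probe sets tested and 44 of 14217 genes. The groups were 6 failing hearts and 6 control hearts, 1 array of the 3' oligonucleotide type for each heart, and the labels call the hearts of a group biological replicates. The study concerns the spontaneously hypertensive rat, an inbred strain in which high blood pressure precedes heart failure. The sources used here give neither the strain, age, sex and treatment of the control animals nor the age of the failing ones. Groups that received captopril are named in the protocol and are not analysed here.

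Chemokines are small secreted proteins that guide leukocytes along a gradient. Their receptors are coupled to G proteins, and the atypical receptors bind the same ligands without that coupling and remove or transport them. CC ligands act mainly on monocytes, eosinophils and lymphocytes. CXC ligands with a Glu-Leu-Arg (ELR) motif act mainly on neutrophils, and those without it on lymphocytes and stem cells. In the heart, endothelial cells, fibroblasts, resident macrophages and cardiomyocytes all can make chemokines, and Ccl2 acting on Ccr2 is the best known route by which monocytes enter failing myocardium.

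Values are log2 of the deposited intensity. A gene is called dim where its mean over the 12 hearts lay under 8.21, the median of all genes, an intensity of 297. Of the 44 genes, 31 (70.5%) were dim, against 50% of all genes, so most of the chemokine system was read near the low end of the array. The 9 cardiomyocyte markers measured were brighter than this threshold in every heart. All arrays had a trimmed mean intensity between 500.19 and 500.23. Control replicate 4 stood apart from the other hearts: it lay beyond them on the second principal component, which held 12.6% of the variance, and on the failing side of the first. The summed intensity of 6 natural killer (NK) cell markers was 27024.1 there, against 155.0 to 602.4 in failing hearts and 252.8 to 660.9 in the other controls. That heart also had the highest sums of neutrophil markers (3569.6, others at most 2569.9) and dendritic cell markers (850.1, others at most 501.7). Of the 3 dendritic cell markers only Itgax was highest there (9.67, log2). Clec9a was the lowest of all hearts there (2.29), and Flt3 (4.91) lay within the range of the others. The dendritic cell sum therefore does not show a gain shared by its markers. Its cardiomyocyte sum was the lowest (244625.6, others at least 253471.4). Its macrophage and B cell sums lay within the range of the other hearts. Results that control replicate 4 moves are given with and without it. Control replicate 3 and failing replicate 5 differed from the rest in the sum of 3 atrial cardiomyocyte markers. It was 18296.8 and 6628.2 in them, against 358.3 to 2059.0 in the other hearts. Myl7 and Myl4 were highest in these hearts, but Sln was 8.75 (log2) in failing replicate 5 and 10.17 in control replicate 5. The cause was not tested. In bulk tissue, fewer cells of a type and less RNA per cell cannot be told apart.

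Among the brighter chemokine genes only Ackr2, a scavenging receptor, passed the test, and it was higher in failing hearts. It lay just inside the brighter genes, with a mean over all hearts of 8.27, through the failing hearts (mean 8.89), while the control mean of 7.65 was dim. Its call among brighter genes therefore rests on that filter, and it was not called over all genes (adjusted p 0.108). By limma with Benjamini-Hochberg adjustment, 1 of the 13 brighter chemokine genes had an adjusted p under 0.05, against 10.1% of all 7109 brighter genes (percent called in the same fit). In the fit over all 14217 genes 0 genes were called (0%), and thus 0 of the 44. At an unadjusted p under 0.05, 8 of the 44 were reached, 18.2%, against 19.1% of all genes. Of these, 5 were higher in failing hearts (9.12% of all genes were) and 3 lower (9.95% of all genes were). Among the 13 brighter chemokine genes 3 reached it (26.1% of brighter genes did), 2 of them higher (12% did) and 1 lower (14.1% did). Among the 31 dim ones 5 did (12% of dim genes did), 3 higher (6.19% did) and 2 lower (5.78% did). The failing and control hearts did not overlap in 1 of the 44, against 2% of all genes, and in 1 of the 13 brighter ones, against 3.24% of brighter genes. Over single probe sets, 11 of 57 had an unadjusted p under 0.05 (14.5% of all 31042 did), 0 passed the adjusted test (0% did), and the hearts did not overlap in 1 (1.52% did). The chemokine genes were therefore called about as often as the rest. Their median difference, failing minus control, was -0.03, and that of all genes was -0.03. By role the median was 0.89 for the 4 atypical receptors, -0.15 for the 28 ligands and -0.02 for the 12 signalling receptors. The mean was higher in failing hearts for 20 of the 44, 45.5%, against 46% of all genes. Each of the 4 atypical receptors had a higher mean in failing hearts, whereas 17 of the 28 ligands and 7 of the 12 signalling receptors had a lower one.

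**Figure D1:**
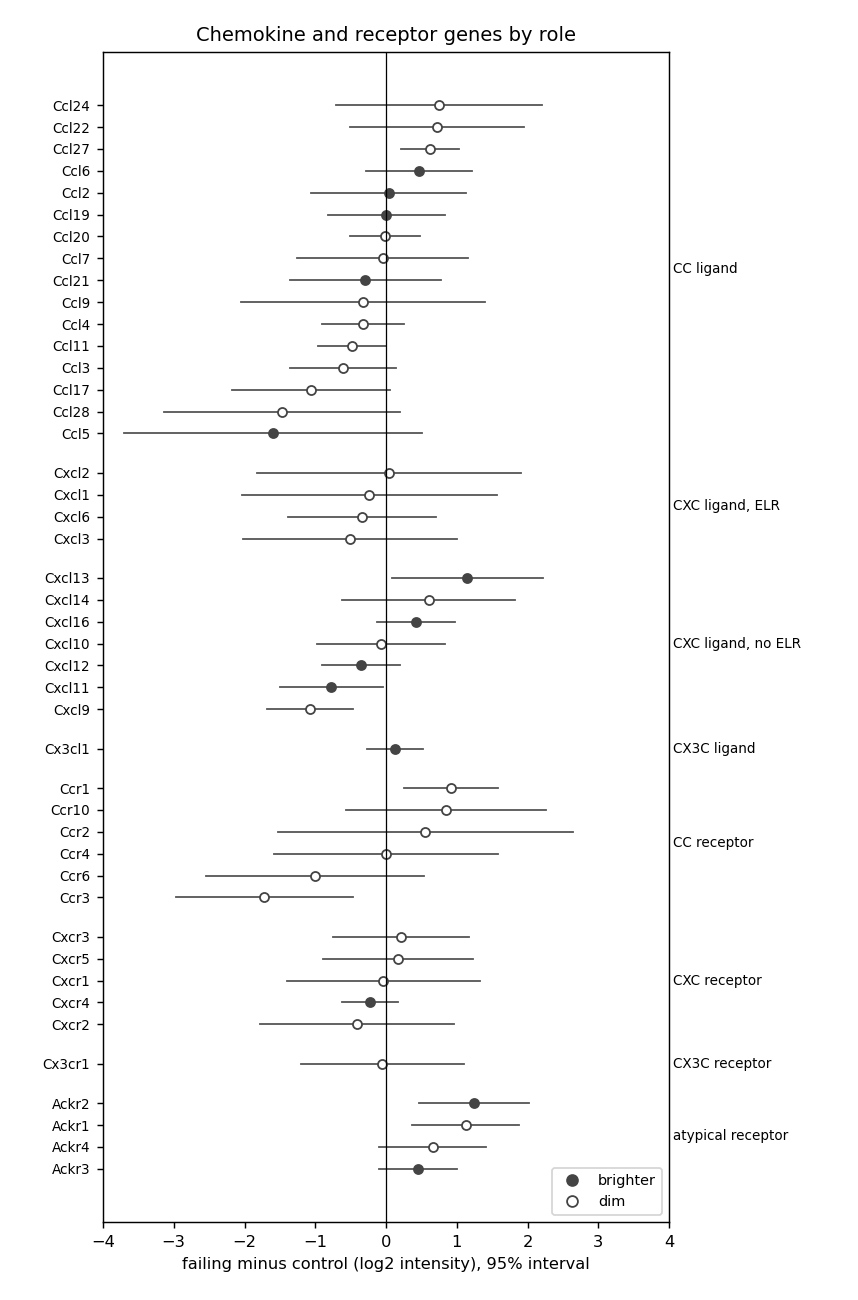
Difference in log2 intensity, failing minus control, of the 44 chemokine and chemokine receptor genes by role, with 6 hearts in each group. Points are means (filled for brighter genes, open for dim ones) and lines are 95% confidence intervals of the limma fit over all genes. The 4 atypical receptors all lie above 0, and the ligands lie on both sides of it.

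The atypical receptors were the group with the most uniform direction. Ackr2 scavenges inflammatory CC chemokines and is best known on lymphatic endothelium. Its log2 intensity was 8.72, 8.73, 9.70, 9.02, 8.44 and 8.74 in failing hearts 1 to 6, against 6.48, 7.47, 6.97, 8.43, 8.27 and 8.29 in control hearts 1 to 6. Every failing heart lay above every control heart, although failing replicate 5 and control replicate 4 nearly met. Ackr2 rose by 1.24 ± 0.35 on the log2 scale, 2.36-fold (± standard error (SE) of the limma fit over all genes, n = 6 in each group), with an adjusted p of 0.108 over all genes, and of 0.032 among the brighter genes, a set it entered through its failing values. The call held in 6 of the 12 fits that left out 1 heart, and the adjusted p ran from 0.0104 without control replicate 4 to 0.0741 without failing replicate 3. Leaving out failing replicate 4, failing replicate 6, or any of control replicates 1, 2 and 3 ended it as well. A second, dim Ackr2 probe set differed in the same direction by 0.68 ± 0.23, with an adjusted p of 0.218 over all probe sets.

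Ackr1, the Duffy antigen, carries chemokines across venular endothelium and buffers them on red cells. It was dim and ranged from 6.57 through a median of 8.28 to 8.84 in failing hearts, and from 6.33 through 6.94 to 7.54 in control hearts. Every failing heart but replicate 5 lay above all controls. The difference was 1.13 ± 0.35, with an adjusted p of 0.124 over all genes. Without failing replicate 5 it was 1.43, with an adjusted p of 0.0191 over all genes by limma. In no other fit that left out 1 heart was Ackr1 called. The adjusted p there reached 0.239, and the difference was 0.97 without failing replicate 6. Ackr3 (CXCR7), which takes up Cxcl12 and Cxcl11, had 11.32, 11.71 and 12.88 as lowest, median and highest log2 intensity in failing hearts, against 11.02, 11.50 and 11.80 in control hearts. The groups overlapped, and the difference was 0.45 ± 0.25 (adjusted p 0.21 among brighter genes). Ackr4, which takes up Ccl19 and Ccl21, was dim. It ranged from 6.72 to 8.26 in failing hearts and from 5.75 to 7.60 in control hearts, with a difference of 0.66 ± 0.35 (adjusted p 0.331 over all genes). The gene Acad11 overlaps Ackr4 in the annotation and had a difference of 0.39 ± 0.22. Whether probes read both was not tested.

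**Figure D2:**
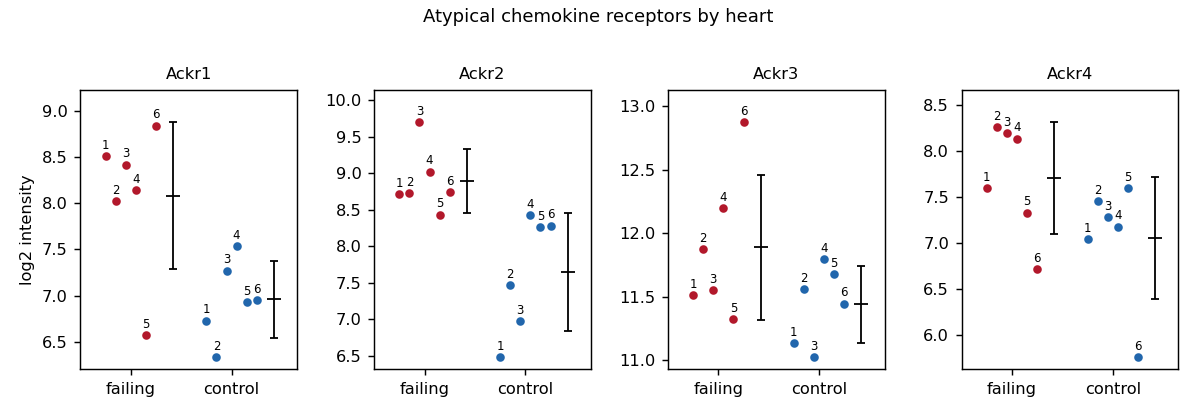
Log2 intensity of Ackr1, Ackr2, Ackr3 and Ackr4 in each heart, failing hearts at the left and control hearts at the right, with the heart's replicate number at each point and the mean ± SD as a black bar. Only for Ackr2 do the 6 failing hearts lie wholly above the 6 control hearts.

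Markers of the vessel cells that carry these receptors varied too. The summed intensity of 7 endothelial markers ran from 12643.7 to 17023.4 in failing hearts, against 11297.8 to 13867.6 in control hearts. Among them Vwf, the von Willebrand factor, rose by 1.10 ± 0.24 (adjusted p 0.0159 among brighter genes by limma), and Emcn, endomucin, fell by 0.78 ± 0.20 (adjusted p 0.0249). The Emcn call ended in 4 of the 12 fits that left out 1 heart. The sum of 4 lymphatic endothelial markers ran from 4181.2 to 5736.5 in failing hearts, against 3296.3 to 5123.4 in control hearts. It includes Lyve1, also a macrophage marker here, which differed by 0.73 ± 0.26 (adjusted p 0.0659 among brighter genes). Of the 4 markers 3 had a higher mean in failing hearts and 1, Prox1, a lower one. Prox1 peaked at 10.73 in failing hearts and at 11.05 in control hearts (log2). Flt4 ran from 6.13 to 7.06 in failing hearts and from 4.58 to 7.12 in control hearts. The sum therefore does not show a gain shared by all 4 markers. The part of vessel cells in the higher atypical receptor values was not tested.

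Cxcl9, Cxcl10 and Cxcl11 are interferon-induced ligands of Cxcr3, the receptor of activated T and NK cells. They lie close together on rat chromosome 14. Whether the 3 genes differed from one another in these hearts was not tested. The 250 bases before the RefSeq start site of each are given here as description only, chosen after the values were seen. They are from GRCr8, plus strand: Cxcl9 chr14:16006916-16007165, Cxcl10 chr14:15988816-15989065, Cxcl11 chr14:15973478-15973727. Capitals mark matches, on either strand, to the motifs searched. These are kappaB, the interferon-stimulated response element (ISRE), the interferon-gamma activated site (TTCNNNGAA), AP-1 (TGANTCA) and C/EBP (TTGCNNAA).

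Cxcl9: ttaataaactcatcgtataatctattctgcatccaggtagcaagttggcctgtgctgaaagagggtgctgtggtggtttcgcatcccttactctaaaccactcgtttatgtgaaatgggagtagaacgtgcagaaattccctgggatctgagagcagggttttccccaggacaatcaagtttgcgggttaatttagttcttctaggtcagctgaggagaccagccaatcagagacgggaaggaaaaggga

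Cxcl10: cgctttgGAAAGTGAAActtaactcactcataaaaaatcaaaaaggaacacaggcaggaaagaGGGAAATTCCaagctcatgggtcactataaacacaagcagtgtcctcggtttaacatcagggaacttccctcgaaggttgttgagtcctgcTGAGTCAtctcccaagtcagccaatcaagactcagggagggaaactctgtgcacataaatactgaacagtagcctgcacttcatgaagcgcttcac

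Cxcl11: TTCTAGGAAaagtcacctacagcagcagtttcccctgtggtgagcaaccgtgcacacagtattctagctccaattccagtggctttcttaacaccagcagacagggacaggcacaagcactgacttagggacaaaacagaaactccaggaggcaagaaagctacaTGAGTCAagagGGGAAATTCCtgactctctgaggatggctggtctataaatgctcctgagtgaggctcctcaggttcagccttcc

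Counted from the start site, with -1 the base before it, Cxcl10 holds an ISRE at -243 to -234, a kappaB match at -187 to -178 and an AP-1 match at -96 to -90. Cxcl11 holds an interferon-gamma activated site at -250 to -242, AP-1 at -85 to -79 and kappaB at -74 to -65. The Cxcl9 window holds no match, and no window holds a C/EBP match. No matches overlap. Among 33469 promoters of the same length, 3.54% hold kappaB, 3.41% the ISRE, 7.67% the activated site, 6.34% AP-1 and 9.22% C/EBP. Of the 34 chemokine genes with a promoter, 8 hold kappaB, 2 the ISRE, 4 the activated site, 5 AP-1 and 6 C/EBP. A match is a description of letters, not a site of binding.

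Cxcl9, dim, ranged from 4.84 through a median of 6.07 to 6.34 in failing hearts, against 6.29, 6.95 and 7.44 in control hearts. Only failing replicate 4 lay above a control, the lowest one. The difference was -1.08 ± 0.28, with an adjusted p of 0.0934 over all genes. The second Cxcl9 probe set differed by -0.93 ± 0.69. Cxcl11 ranged from 9.50 through 10.42 to 10.86 in failing hearts, against 10.07, 11.09 and 11.92 in control hearts. The groups overlapped, and Cxcl11 differed by -0.77 ± 0.33 (adjusted p 0.106 among brighter genes). Without control replicate 4, which had the lowest Cxcl11 of the controls, it was -0.97 with an adjusted p of 0.0232. In no other fit that left out 1 heart was Cxcl11 called, and the adjusted p there reached 0.222. Cxcl10, also dim, differed by -0.07 ± 0.41 (-0.23 without control replicate 4), with failing hearts from 6.28 to 8.06 and control hearts from 6.35 to 8.51. The dim receptor Cxcr3 had 5.15, 5.95 and 6.54 in failing hearts, against 3.68, 6.07 and 6.25 in control hearts. Its difference was 0.21 ± 0.44, and -0.20 without control replicate 4, its lowest value. The long gene Art3 overlaps Cxcl10 and Cxcl11 in the annotation, and its own log2 intensity averaged 13.13 in failing hearts and 13.15 in control hearts, a difference of -0.02 ± 0.17. Art3 was thus brighter than both, and whether their probes read it as well was not tested.

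**Figure D3:**
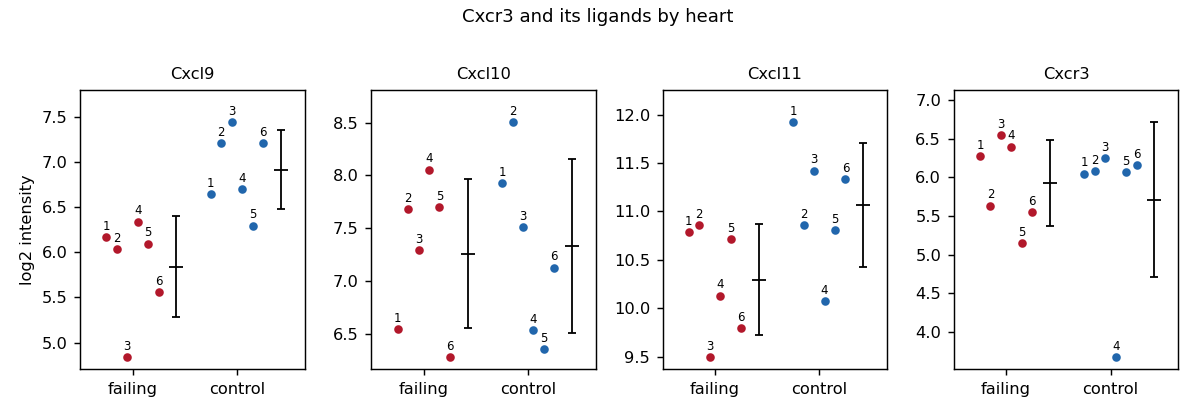
Log2 intensity of Cxcl9, Cxcl10, Cxcl11 and Cxcr3 in each heart, failing at the left and control at the right, with replicate numbers and mean ± SD. Cxcl9 and Cxcl11 lie lower in most failing hearts, Cxcl10 spreads alike in both groups, and control 4 lies at 3.68 for Cxcr3.

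Of the genes of monocyte recruitment, Ccl2 and Ccl7 diverged among the failing hearts and were close together in the controls. Ccl2 (MCP-1), the main ligand of Ccr2, had log2 intensities of 8.76, 10.92, 11.62, 10.99, 9.66 and 8.57 in failing hearts 1 to 6, against 9.75, 10.31, 9.82, 10.05, 10.55 and 9.82 in control hearts 1 to 6. Failing replicates 2, 3 and 4 lay above every control, and replicates 1, 5 and 6 below every control. The mean difference was 0.04 ± 0.50. The SD was 1.27 in failing hearts, against 0.32 in control hearts. Ccl7, a second Ccr2 ligand and just dim, showed the same order of extremes, with 9.30, 9.70 and 9.05 in failing replicates 2, 3 and 4 and 6.91, 7.79 and 6.25 in replicates 1, 5 and 6. Control hearts ran from 7.82 to 8.81, and the difference was -0.05 ± 0.55. Ccr2 itself was dim and was 6.95, 7.09 and 6.03 in failing replicates 2, 3 and 4, and 1.54, 2.51 and 4.86 in replicates 1, 5 and 6. Control hearts ran from 3.29 to 5.39, and Ccr2 differed by 0.56 ± 0.96, or 0.36 without control replicate 4.

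Ccr1, a receptor of monocytes and neutrophils for Ccl3, Ccl5 and Ccl7, was dim. It had 6.84, 7.56 and 8.58 in failing hearts, against 6.36, 6.52 and 7.35 in control hearts. The ranges overlapped, and the difference was 0.91 ± 0.30 (adjusted p 0.147 over all genes). Cx3cl1 (fractalkine), the membrane-bound ligand of Cx3cr1, ran from 8.93 to 9.84 in failing hearts and from 8.89 to 9.73 in control hearts, a difference of 0.12 ± 0.18 (adjusted p 0.649 among brighter genes). Cx3cr1, found on patrolling monocytes and macrophages, was dim. It had 3.95, 6.44 and 7.46 in failing hearts, against 5.39, 6.29 and 6.90 in control hearts (difference -0.05 ± 0.53). Its 3 highest failing hearts were again replicates 2, 3 and 4. The same was seen outside the monocyte route for Ackr4, Ccl3, Ccl4, Ccl6, Cxcl16 and Cxcr4, and not for the remaining members.

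**Figure D4:**
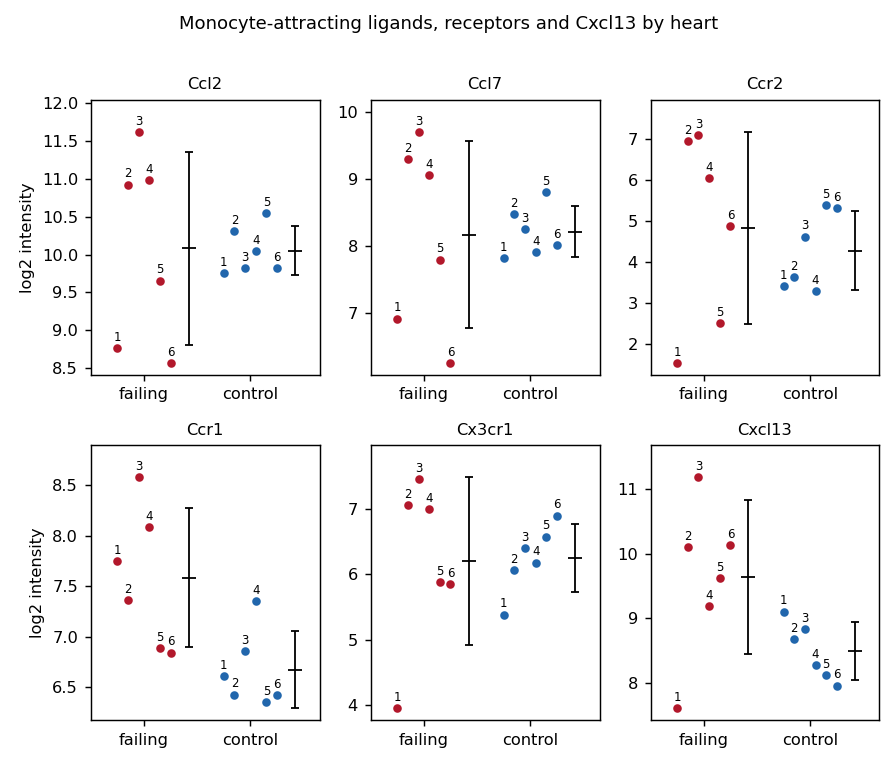
Log2 intensity of the genes of the monocyte route in each heart, failing at the left and control at the right, with replicate numbers and mean ± SD. The last panel is Cxcl13. Failing replicates 2, 3 and 4 are the upper 3 failing hearts for Ccl2, Ccl7, Ccr2 and Cx3cr1.

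The summed intensity of 13 macrophage and monocyte markers was 39361.5, 48228.5 and 47159.9 in failing replicates 2, 3 and 4, against 14891.4 to 24635.6 in control hearts. In failing replicates 1, 5 and 6 it was 27444.8, 22053.6 and 32193.2. Lyz2 was the brightest of these markers and weighs most in the sum. With each gene centred on its mean, the average log2 was 0.59, 0.93 and 0.82 in replicates 2, 3 and 4. It was -0.18, -0.28 and 0.15 in replicates 1, 5 and 6, within the control range of -0.69 to 0.19. Of the 13 markers 12 had a higher mean in failing hearts and 1, Adgre1, a lower one. The sum of 8 fibroblast markers split the failing hearts alike, with 74382.8, 91636.8 and 75132.1 in replicates 2, 3 and 4, against 37613.4 to 59540.8 in control hearts. Replicates 1, 5 and 6 had 47231.9, 55812.4 and 66917.9 for this fibroblast sum. Of the 10 brighter macrophage markers 5 rose and 0 fell, where 5.4% of all brighter genes were called higher, among them Mrc1, the mannose receptor (by 1.03 ± 0.26, adjusted p 0.0229 by limma), and Lyz2, lysozyme (by 0.76 ± 0.20, adjusted p 0.0254). Without control replicate 4, 7 of the 10 rose, where 10.2% of all brighter genes did. Leaving out failing replicate 3, failing replicate 4 or control replicate 6 ended both calls, and leaving out control replicate 1 ended that of Lyz2. The part of macrophage or fibroblast number in the spread of Ccl2, Ccl7 and Ccr2 was not tested.

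Ccl5 (RANTES), made by T cells, NK cells and platelets, had intensities set by 1 heart. It was 7.28, 7.38, 8.18, 8.07, 7.78 and 7.15 in failing hearts 1 to 6 (log2), against 8.13, 8.21, 7.85, 14.34, 8.50 and 8.41 in control hearts 1 to 6. Control replicate 4 was 57.7-fold above the next highest heart. The difference was -1.60 ± 0.96 (adjusted p 0.235 among brighter genes). Without control replicate 4 it was -0.58 ± 0.21, with an adjusted p of 0.133 over all genes. Ccl5 counts as brighter only through that heart, since its mean over the other 11 was 7.90. With the set of brighter genes kept as it was, 3 of 13 brighter chemokine genes were called without control replicate 4 (Ackr2, Ccl5 and Cxcl11), against 23.7% of all brighter genes, 1 higher (10.2% were) and 2 lower (13.5% were). In the fit over all genes without that heart 0 of the 44 were called, against 4.75% of all genes. Ccl3 (MIP-1 alpha), dim, also peaked there, at 8.32, against 5.77 to 7.29 in the other 11 hearts. In the same heart Gzmb (granzyme B) was at 12.31 and Prf1 (perforin) at 13.32, with none of the others above 6.61 and 7.06. Cxcr3 was lowest there. The sum of 9 T cell markers was 6129.2 in control replicate 4, against 525.4 to 1082.9 in failing hearts and 638.2 to 868.4 in the other controls. Only Lck (12.35) and Cd2 (8.45) of these 9 were above all other hearts there, and the defining T cell genes Cd3d, Cd3e and Cd3g lay within their range, as did Cd4, Cd5, Cd8a and Cd28. Whether these values come from the heart or the array was not tested.

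**Figure D5:**
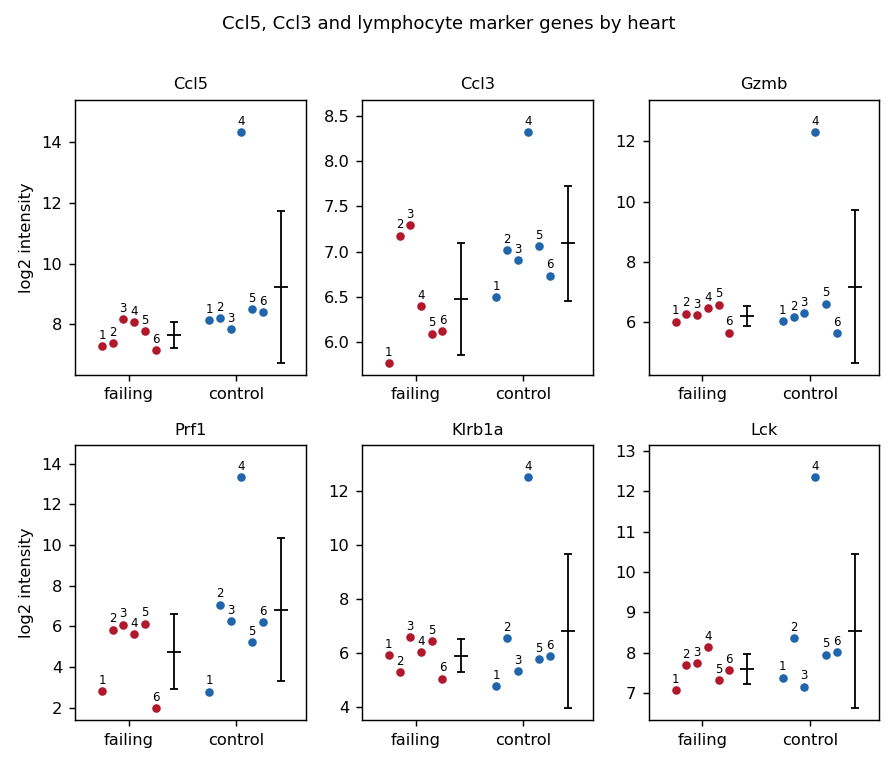
Log2 intensity of Ccl5, Ccl3, Gzmb, Prf1, Klrb1a and Lck in each heart, failing at the left and control at the right, with replicate numbers and mean ± SD. Control replicate 4 is the highest of the 12 hearts in every panel.

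Cxcl12, which retains stem cells and lymphocytes through Cxcr4, is a chemokine that heart tissue makes at all times. Its brightest probe set had 11.07, 11.91 and 12.84 in failing hearts, against 12.24, 12.30 and 12.58 in control hearts. The control hearts were very close together, and 4 failing hearts lay below all of them. The difference was -0.35 ± 0.25 (adjusted p 0.313 among brighter genes). Its other probe sets differed by 0.07 ± 0.20 and 0.37 ± 0.26, so the sign depended on the probe set, and the mean of the 3 differed by 0.03. Cxcr4 had 8.59, 9.18 and 9.71 in failing hearts, against 9.11, 9.34 and 9.54 in control hearts, with a difference of -0.22 ± 0.18 (adjusted p 0.382). All 3 Cxcr4 probe sets lay lower, by -0.22, -0.24 and -0.30. Cxcl16, a transmembrane scavenger receptor and ligand of Cxcr6, had 9.62, 10.49 and 11.16 in failing hearts, against 9.56, 9.88 and 10.33 in control hearts (difference 0.42 ± 0.25, adjusted p 0.233). Cxcr6 is not analysed here. Cxcl14, dim, ran from 4.13 to 7.33 in failing hearts and from 3.87 to 5.65 in control hearts (0.60 ± 0.56).

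Cxcl13 attracts B cells through Cxcr5. It had 7.60, 9.86 and 11.19 in failing hearts, against 7.95, 8.48 and 9.10 in control hearts. Failing replicate 1 was lower than all controls, and the other 5 failing hearts lay above all of them. The difference was 1.15 ± 0.49 (adjusted p 0.103 among brighter genes), and without failing replicate 1 it was 1.56 with an adjusted p of 0.0211. In no other fit that left out 1 heart was Cxcl13 called. The adjusted p there reached 0.210, and the difference was 0.84 without failing replicate 3. The dim Cxcl13 receptor Cxcr5 differed by 0.17 ± 0.49. The summed intensity of 4 B cell markers was 83.2 to 179.2 in failing hearts, against 89.9 to 211.0 in control hearts. Ccl19 and Ccl21, ligands of Ccr7 on dendritic and T cells, differed by 0.01 ± 0.38 and -0.29 ± 0.49.

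The neutrophil-directed ELR ligands and the receptors Cxcr1 and Cxcr2 were all dim, and none passed a test. Cxcl1 (KC) ran from 2.98 to 6.74 in failing hearts and from 2.96 to 6.70 in control hearts, a difference of -0.24 ± 0.82. Cxcl2 (MIP-2) ran from 1.81 to 5.48 in failing hearts and from 2.04 to 6.10 in control hearts, a difference of 0.04 ± 0.85. Cxcl3 has 5 dim probe sets with differences of -0.51, 0.97, 1.41, -1.44 and -0.50, so they do not give the gene 1 direction. Cxcl6 differed by -0.34 ± 0.48. Cxcr2, the neutrophil receptor of these ligands, had 1.72, 2.15 and 4.99 in failing hearts, against 1.63, 3.33 and 4.49 in control hearts (-0.41 ± 0.63), and Cxcr1 differed by -0.04 ± 0.62, or 0.25 without control replicate 4, its highest heart. Without that heart Cxcl2 was at -0.42.

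All chemokine genes of this paragraph but Ccl6 were dim. Ccl27, a skin chemokine that draws T cells through Ccr10, had 8.08, 8.32 and 8.60 in failing hearts, against 7.21, 7.70 and 8.26 in control hearts. The spread of failing hearts was small, and the groups overlapped at control replicate 3. It differed by 0.62 ± 0.19 (adjusted p 0.119 over all genes). Il11ra1 overlaps Ccl27 in the annotation and differed by 0.31 ± 0.12, and whether the probes read both was not tested. Ccr10 differed by 0.85 ± 0.65. Ccr3, the eotaxin receptor of eosinophils, had 2.35, 4.44 and 5.75 in failing hearts, against 5.44, 5.98 and 6.26 in control hearts, with a difference of -1.72 ± 0.57 (adjusted p 0.146 over all genes). Of its ligands, Ccl11 differed by -0.48 ± 0.22, and Ccl24 by 0.75 ± 0.67, or 1.22 without control replicate 4. Of the T helper 2 ligands of Ccr4, Ccl17 differed by -1.06 ± 0.51 and the 2 Ccl22 probe sets by 0.72 and -0.79. Ccr4 and Ccr6 differed by 0.00 ± 0.73 and -1.01 ± 0.70. Ccl20, the ligand of Ccr6, differed by -0.01 ± 0.23. Ccl28 differed by -1.47 ± 0.76. Of the ligands shared with macrophages, Ccl3 differed by -0.61 ± 0.34 (-0.37 without control replicate 4), Ccl4 by -0.33 ± 0.27, Ccl6 by 0.46 ± 0.34 and Ccl9 by -0.32 ± 0.79 (-0.19 without it). None of these had an unadjusted p under 0.05 other than Ccl27 and Ccr3. In all, 8 of the 44 genes overlap a protein-coding gene in the RefSeq annotation.

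Spread within the groups was itself uneven. The SD of failing hearts exceeded that of control hearts in 30 of the 44 genes, 68.2%, against 49.8% of all genes, in 10 of the 13 brighter ones (50.8% of brighter genes) and in 20 of the 31 dim ones (48.8% of dim genes). It was at least 2 times as large in 11 (25%, against 11.5%). The largest ratio was 4.82 for Cxcl12, 4.43 for Ccr3, 3.97 for Ccl2 and 3.73 for Ccl7. For Cxcl12 this depended on the probe set, since the SDs of its other probe sets were 0.40 in failing and 0.23 in control hearts, and 0.47 in failing and 0.46 in control hearts. Failing replicate 1 gave the lowest failing value of 16 of the 44, 36.4%, against 20.6% of all genes, and failing replicate 3 the highest of 17, 38.6%, against 18.6%. In failing replicate 1 the 3' minus 5' difference of the Gapdh and beta-actin control probe sets, a sign of RNA quality, was 0.70 (log2), against 0.50 to 0.53 in the other failing hearts and 0.36 to 0.78 in control hearts. On the second principal component failing replicates 1 and 6 lay at 40.9 and 36.1, and the other failing hearts between -8.19 and 5.16. These shares were not tested, as genes within a heart vary together.

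Genes around the chemokines were counted in 7 lists, of which 6 had called members among brighter genes. By limma with Benjamini-Hochberg adjustment, 10.1% of all brighter genes were called, 5.4% higher and 4.73% lower. The list of chemokine proteases had 6 of 9 brighter members higher and 0 lower, and a median of 0.57 in those 9 against -0.03 for all brighter genes. Mmp2, the gelatinase that clips Ccl7 and Cxcl12, had 11.38, 11.93 and 12.39 in failing hearts, against 10.85, 11.01 and 11.37 in control hearts. It rose by 0.89 ± 0.17 with no overlap (adjusted p 0.0142). Cathepsins K, S and B also rose: Ctsk by 1.22 ± 0.26 (adjusted p 0.0159), Ctss by 1.23 ± 0.29 (0.0175) and Ctsb by 0.39 ± 0.10 (0.0271). The calls of Mmp2, Ctsk and Ctss held in all 12 fits that left out 1 heart, whereas Ctsb was lost in 5. Dpp4, which trims the ends of chemokines such as Cxcl10 and Cxcl12, was dim, with 6.62, 7.06 and 7.90 in failing hearts, against 7.84, 8.56 and 8.89 in control hearts. Its difference was -1.28 ± 0.28 (adjusted p 0.0756 over all genes), and it is named after its values were seen. Beside these proteases, 5 of 10 brighter macrophage markers, 1 of 7 brighter fibroblast markers and 2 of 6 brighter smooth muscle and pericyte markers rose, and 8 of 8 fibroblast and 6 of 7 smooth muscle and pericyte markers had a higher mean in failing hearts (medians of 0.49 and 0.59). The part of these cells in the protease values was not tested.

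Of inducers of chemokine transcription, 5 of 15 brighter members rose and 1 fell, and without control replicate 4 the counts were 6 and 2, in a fit that called 10.2% of all brighter genes higher and 13.5% lower, shares that also stand behind the other counts without this heart. Cebpd, a C/EBP transcription factor, rose by 1.49 ± 0.26 with no overlap (adjusted p 0.00988) and held in all 12 fits. Tnfrsf1a, a TNF receptor, rose by 0.66 ± 0.16 (adjusted p 0.0219, lost in 4 of 12 fits), and Il1r1, the IL-1 receptor, by 0.72 ± 0.20 (0.0322, lost in 6). Tnfaip3 (A20), an inhibitor of NF-kB, fell by 0.58 ± 0.15 with no overlap (adjusted p 0.0249, lost in 2). Nfkbia, which also encodes an inhibitor of NF-kB, was among the 5 that rose, and its call was lost in 9 of 12 fits. Of presentation genes 2 of 11 rose, Sdc4, a heparan sulfate carrier, by 1.18 ± 0.28 (adjusted p 0.0207), and Ext1, which builds that sugar, by 0.49 ± 0.12 (0.0235). Both calls held in most fits, Sdc4 being lost in 1 and Ext1 in 2. Of adhesion genes 1 of 9 rose, Icam1, an integrin ligand, by 0.80 ± 0.23 (adjusted p 0.034, lost in 9 of 12 fits), against 3 of 9 without control replicate 4. Of receptor signalling genes 2 of 16 rose and 0 fell, Jak2, a kinase, by 0.88 ± 0.24 (adjusted p 0.0274, lost in 6) and Bcar1, an adaptor, by 0.98 ± 0.31 (0.0425, lost in 9), against 4 of 16 without control replicate 4. Bcar1 entered the brighter genes through its failing mean of 8.83, its control mean of 7.85 being dim, and its adjusted p over all genes was 0.131. Of desensitisation genes 2 of 5 rose, Rgs2, a G protein regulator, by 0.92 ± 0.23 (adjusted p 0.0238, lost in 4) and Grk5, a receptor kinase, by 0.44 ± 0.14 (0.0477, lost in 8). Of the chemokine genes outside the symbol rule none was called. The smallest p of this list belonged to Xcl1, dim, at 3.71 in failing hearts and 5.00 in control hearts on average. Control replicate 4 had the lowest Xcl1 (2.41), against 2.63 to 6.62 in the other hearts. Without that heart 1 of the 8 genes of this list was lower at an unadjusted p under 0.05 by limma, against 0 with it. In that fit 1828 of 14217 genes were lower.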

How the data were processed

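The authors deposited 1 table of linear intensity values for 12 one-colour arrays of heart tissue, per the labels from Trizol-extracted RNA. RMA is named in the submitters' processing notes, yet the deposited values are linear and scaled to a common trimmed mean (2% from each end), so the summary method is unknown, and no genome build is given in the sources used here. Intensities ran from 0.1 to 79913.6. Detection calls, scan dates and batches were not used here, 0 columns belonged to no sample, and precision is limited by the number of arrays. One label describes a cell line and another gives heart as the tissue, and the second was followed.

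Intensities were converted to log2 without an offset, and 57 control probe sets were dropped. Each gene was represented by its probe set with the highest mean among the 20826 with 1 symbol (436 had several and 9780 none), annotation from the platform. The group comparison used limma 3.58.1 under R 4.3.3 (lmFit, eBayes, two-sided, Benjamini-Hochberg, adjusted p threshold 0.05) over all 14217 genes, over the 7109 brighter ones, and over 31042 probe sets. SEs are from the fit over all genes, or over probe sets for single probe sets. The fits were run on simulated data with noise independent between genes and hearts and no outlying heart. That run checks the code and cannot bear on the calls made here. All 44 genes matched RefSeq (GRCr8) by gene identifier, and 34 had a promoter there. Names, overlaps and promoter sequences are from RefSeq.

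The members, the lists of neighbouring pathway genes and the marker lists were chosen with earlier results of these data known. The rule for named genes covered members called, not overlapping, or with an unadjusted p under 0.05, and further chemokine genes named in any case where measured. Their values are printed by heart for some, and as a range with or without the median for the others. Of each pathway list, up to 4 called genes with the smallest p are named, and Dpp4 and Nfkbia were named besides. Same-numbered hearts of the 2 groups had correlations of deviations from -0.12 to 0.26 and were not treated as pairs. Alternatives covered filters, the variance model, normalization, array weights, an offset, probe set averaging, a rank-sum test, the replicate number, an RNA quality covariate and leaving out each heart. Counts of lists and role groups without control replicate 4 were chosen after seeing the data. Plots were made with matplotlib 3.10.9.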

Additional observations from a re-analysis of the deposited data

Results flagged for a closer look

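In 10 of 88 groups of 6 hearts tested, 1 heart lay apart from the others by Dixon's test, and chance flags about 1 in 20 groups. Control replicate 4 accounted for 3 of them: Ccl5 at 14.34, Ccl3 at 8.32 and Cxcr3 at 3.68 (log2 intensity), the first 2 above and the third below the other controls. In failing hearts, Ackr1 was low in replicate 5 (6.57), Cxcr5 low in replicate 1 (5.73), and Ccl22 low in replicate 3 (3.25). In control hearts, Ackr4 was low in replicate 6 (5.75), Ccr10 high in replicate 5 (5.55), Ccl19 high in replicate 2 (9.65) and Ccl21 high in replicate 1 (11.04). The causes were not tested.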

How the results depend on the processing

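Over all genes, limma called 0 genes (2710 at an unadjusted p under 0.05, and 2517 by the rank-sum test), but 524 with a variance trend, 657 with array weights, 109 with an offset of 32, 552 with genes of mean log2 of at least 7, and 0 to 676 when 1 heart was left out. Among brighter genes the 720 calls became 1914 with array weights, 396 with the mean of all probe sets, 0 with the exact rank-sum test (1867 at an unadjusted p under 0.05), and 179 to 1688 when 1 heart was left out (1688 without control replicate 4). Median centring gave 333 higher and 184 lower calls, against 384 higher and 336 lower. The 1 chemokine gene called, Ackr2, became 5 with array weights (Ackr2, Ackr3, Ccl6, Cxcl11 and Cxcl13), 0 with the rank-sum test and 0 to 3 when 1 heart was left out. With the replicate number as a block the calls were 411 and 0, Ackr2 having an adjusted p of 0.0537. The numbers are not known to pair hearts. Small differences changed sign. With array weights they were Cx3cr1 0.168, Cxcl1 0.00875, Cxcl10 0.0187, Cxcl2 -0.0109 and Cxcr3 -0.0272, with an offset of 32 Cx3cr1 0.0515 and Cxcl2 -0.0599, and with the mean of all probe sets Cxcl12 0.0302. With 1 heart left out, among the members under the rule for named genes, ranges spanning 0 were Ccl2 -0.27 to 0.34, Cx3cr1 -0.30 to 0.40, Cxcl1 -0.66 to 0.14, Cxcl10 -0.26 to 0.17, Cxcl2 -0.42 to 0.55 and Cxcr3 -0.20 to 0.37. Of 221 values under other settings 207 kept direction and side of the threshold, and of 276 with 1 heart left out 240 did. The causes were not tested.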
